A study of Mus musculus with 4 samples.

Results

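The genes described here are the heat shock proteins and their cochaperones in medullary thymic epithelial cells (mTECs), the cells of the thymic medulla that display self-antigens to developing T cells. They were chosen by symbol alone: every Hspa, Hspb, Dnaja, Dnajb or Bag gene with a number in its name, together with *Hsp90aa1*, *Hsp90ab1*, *Hsp90b1*, *Hsph1*, *Hspd1*, *Hspe1*, *Hsf1* and *Hsf2*. The rule found 52 of the 23337 genes in the count table, and 50 of them passed the filter on low counts, as did 18547 genes in all. The 2 that did not were *Dnajb8*, with no read in any library, and *Hspb3*, with 24 and 7 reads in the WT libraries and 9 and 0 in the others.

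mTECs were sorted as CD45- EpCAM+ UEA-1+ Ly51- cells from the thymus of 4-week-old C57BL/6 mice and their RNA was sequenced in 4 libraries, 2 to a group. The WT libraries are labelled wild type, and the study's controls were mice without the Cre transgene, littermates or matched for age. The others are labelled Sirt6-/-, and in the study such mice carried *Sirt6* loxp/loxp with *Foxn1*-Cre, which is active in thymic epithelium, so that the deletion was aimed at these cells and not at the whole animal. They are called *Sirt6* cKO here, as in the study. *Sirt6* encodes a deacetylase that acts on histones. How many mice gave each sample was not given in the sources used here.

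Heat shock proteins are chaperones that bind unfolded protein. The Hsp70 proteins do so in cycles of ATP hydrolysis that the J-domain proteins (DNAJ) start and that nucleotide exchange factors, the BAG and Hsp110 proteins, complete, and they pass some clients on to Hsp90. Small heat shock proteins hold unfolded protein without ATP, Hspd1 with Hspe1 folds protein in mitochondria, and Hspa5 with Hsp90b1 does so in the endoplasmic reticulum (ER). *Hsf1* encodes the transcription factor that raises the cytosolic set under heat or proteotoxic stress, and the same set is known to respond when tissue is dissociated warm. All 4 samples came from thymus digested with collagenase and dispase at body temperature before the sort.

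The libraries held between 61102704 and 65907745 counts, and between 18608 and 19475 genes had a count. The targeted gene, *Sirt6*, did not show a loss of reads under the cKO label: it had 622 and 755 reads in the WT libraries and 882 and 835 in the *Sirt6* cKO libraries, a log2 fold change of 0.37 (SE 0.32, edgeR's quasi-likelihood test, Benjamini-Hochberg adjusted p = 0.800). The table counts whole genes, so it does not show whether the deleted exons were read, and all directions below follow the labels. The sorted type was represented, with *Epcam* at 798 and 835 TPM (a level per length, scaled to the library) in WT and 1060 and 1201 in *Sirt6* cKO. *Aire* was at 395 and 495 TPM in WT and 632 and 754 in *Sirt6* cKO. Both genes were thus higher in the *Sirt6* cKO libraries. *Ptprc*, which encodes the CD45 that the sort excluded, was between 106 and 177 TPM, and every cell type list that was examined had all its measured genes above 0 in at least 1 library. In bulk RNA, fewer cells of a type and less RNA per cell cannot be told apart.

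As a group the heat shock genes were abundant in the sorted samples and stood close together in the 2 genotypes. Their TPM summed to 12361 and 10604 for the WT libraries and to 12757 and 12760 for *Sirt6* cKO, which is between 1.06% and 1.28% of all TPM. WT 2 was the lowest of the 4, and the other 3 differed little. At an unadjusted edgeR p of 0.05, 5 of the 50 members tested differed (10%, beside 8.58% of all genes tested). On the side labelled *Sirt6* cKO 4 were higher (8%, beside 5.27%), *Hspa1a*, *Hspa13*, *Bag3* and *Dnajb9*, and 1 was lower (2%, beside 3.32%), *Hspb9*. No member passed an adjusted p of 0.05 in edgeR or in DESeq2, where 0.00539% (edgeR) and 1.88% (DESeq2) of all genes tested did. At the unadjusted p, DESeq2 had 5 members (10.2% of its genes passed), 3 of them higher and 2 lower (5.80% and 4.38% of its genes). These calls changed with single libraries left out. Of the 4 higher members, *Hspa1a* alone was called without WT 1, without WT 2 or without *Sirt6* cKO 1, and none without *Sirt6* cKO 2. Other members were then called higher, *Dnaja1* and *Dnajb7* without WT 1 and *Hspa1b* without *Sirt6* cKO 1. *Hspb9* was called in none of the 4 cases, and without *Sirt6* cKO 2 the members called lower were *Bag1* and *Dnajb11*.

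**Figure D1:**
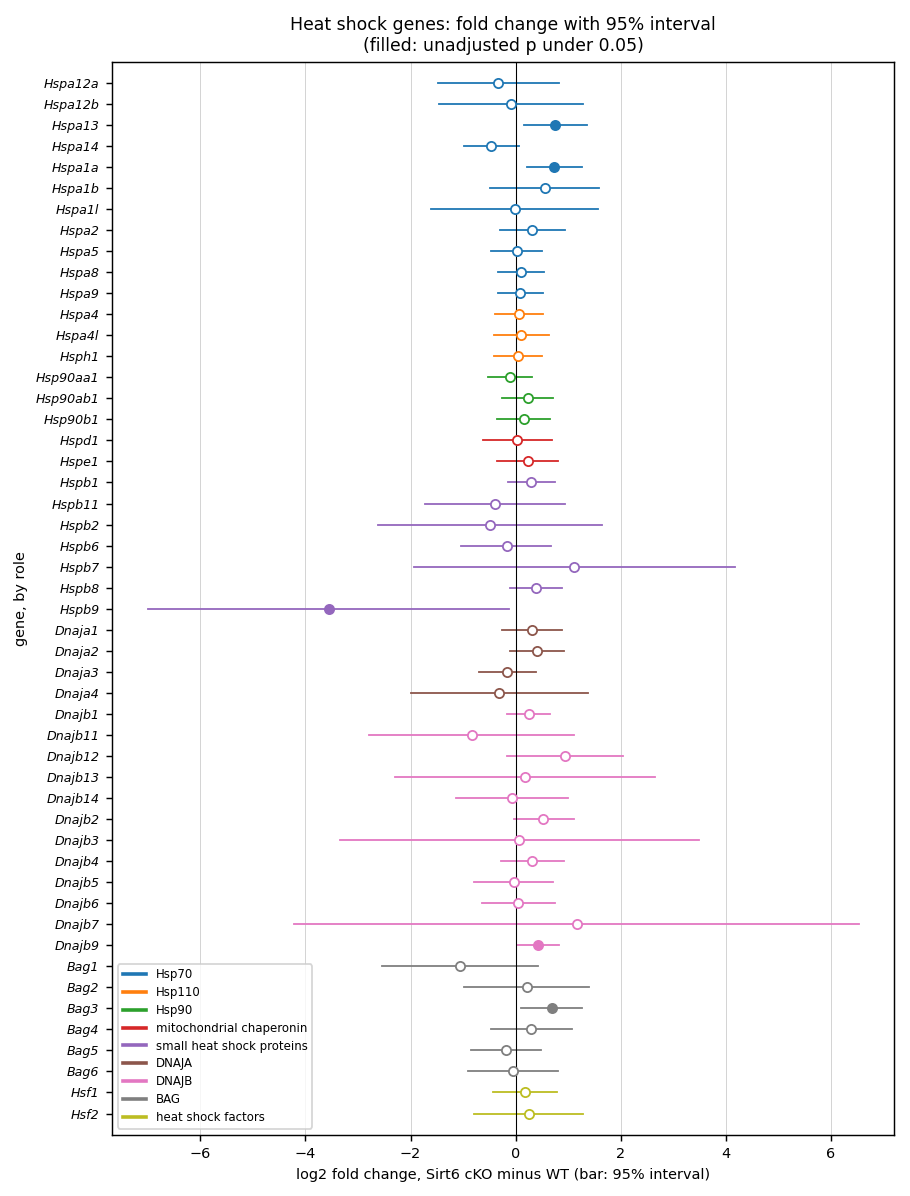
Fold change of each of the 50 members tested, on a log2 scale (x axis, libraries labelled *Sirt6* cKO minus WT), by role and gene (y axis). Points are edgeR estimates, bars their 95% intervals, and filled points are the 5 members with an unadjusted p under 0.05. Most intervals cross 0, and 26 lie wholly between -1 and 1.

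The median log2 fold change of the 50 members was 0.10, beside -0.0047 for all genes tested, and 33 members (66%) had a fold change above 0, beside 49.6% of all genes. Scaling moved both together: with library size alone 27 members were above 0 (43.3% of all genes), and the median was 0.02 for the members and -0.093 for all genes. In 18 members (36%, beside 41.9% of all genes tested) the 2 groups did not overlap in CPM (counts scaled to library size), 14 of them with the libraries labelled *Sirt6* cKO higher (28% of the members, 21.6% of all genes) and 4 lower (20.3% of all genes). Differences between replicates and between genotypes had like values, but they are unlike measures. A replicate difference is between single libraries, while the fold change is between groups of 2 and averages out part of that spread. The median absolute difference between replicates, as log2(CPM + 0.5), was 0.30 in WT and 0.25 in *Sirt6* cKO, and the median absolute log2 fold change between groups was 0.25.

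**Figure D2:**
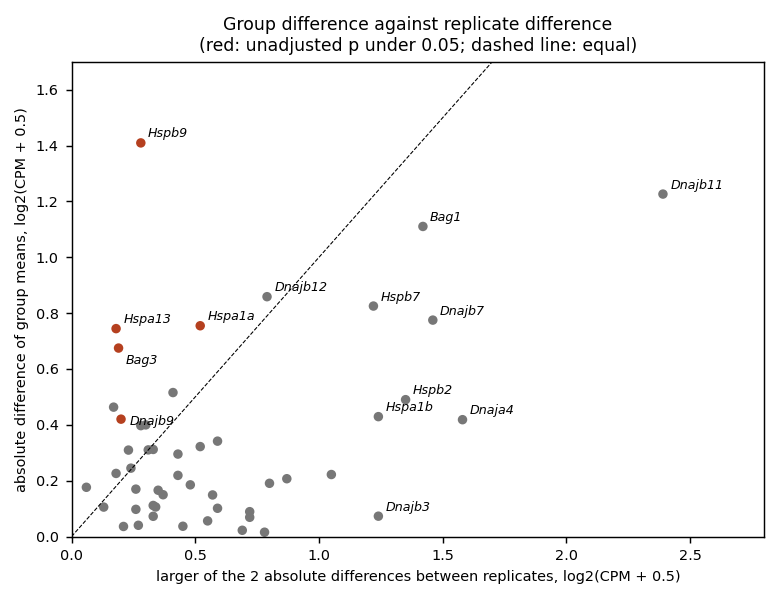
Absolute difference of the group means (y axis) against the larger of the 2 absolute differences between replicates (x axis) for the 50 members tested, both on the log2(CPM + 0.5) scale; the dashed line marks equal values. The group difference was the larger in 15 members, among them all 5 with an unadjusted p under 0.05 (red), while *Dnajb11*, *Dnaja4*, *Dnajb7* and *Bag1* lie far to the right. The p-value itself sets the group difference against the spread between replicates, so the place of the red points is no separate support. The same count over all genes tested was not made.

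The levels differed widely between members. The 5 most abundant members by mean TPM were *Hspa8*, *Hsp90b1*, *Hspa5*, *Hspb1* and *Hsp90ab1*, which together held 53.6% of the summed TPM. At the top stood *Hspa8*, with a mean of 2067 TPM. In all, 20 members had a mean over 100 TPM and 10 had one under 5 TPM. The low ones included genes known mainly from testis or muscle, such as *Hspa1l*, *Dnajb3*, *Hspb7* and *Hspb9*.

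**Figure D3:**
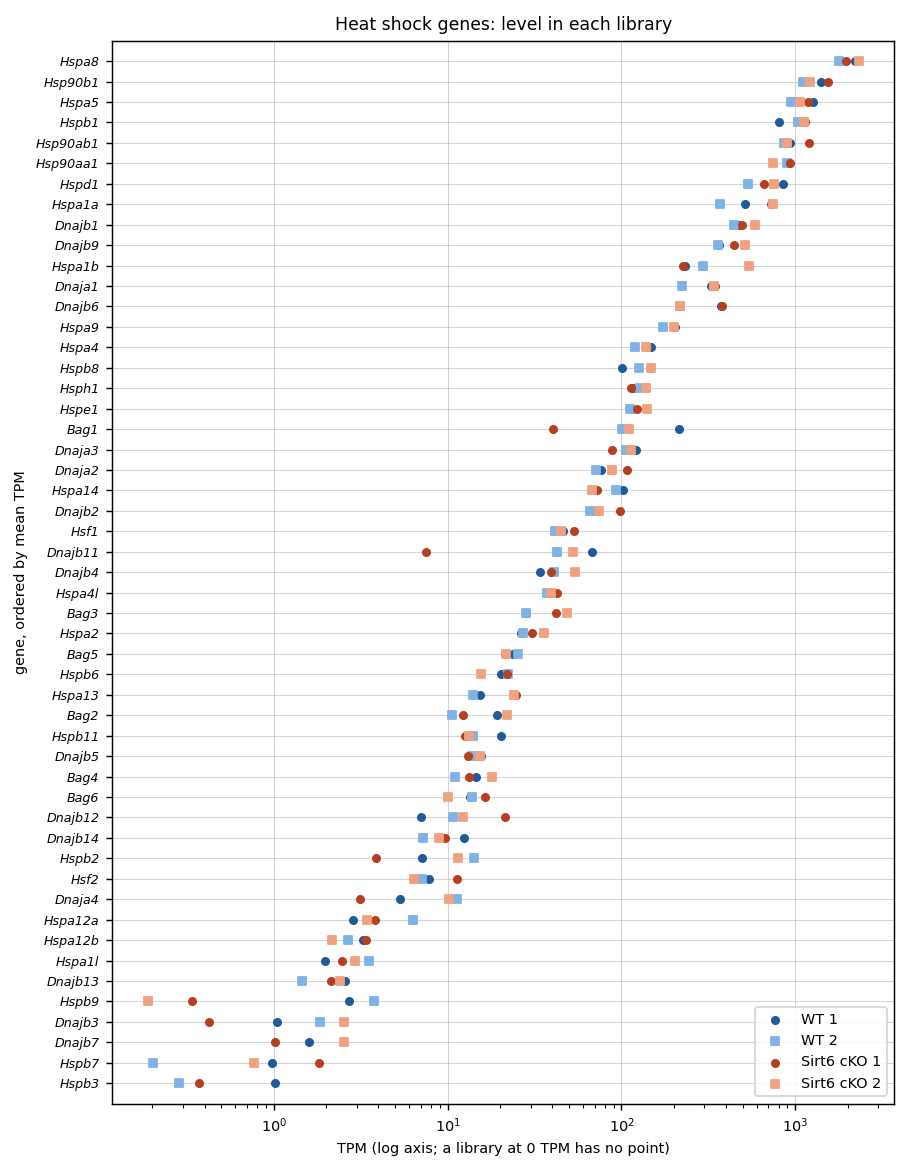
TPM of each member in each library on a log axis (x axis), ordered by mean TPM (y axis); circles and squares are replicates 1 and 2, blue WT and red *Sirt6* cKO. *Hspa8*, *Hsp90b1* and *Hspa5* lead, and the points of single genes mostly lie close together, with *Sirt6* cKO 1 far below the rest in *Bag1* and *Dnajb11*.

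The stress-inducible cytosolic Hsp70 is encoded by *Hspa1a* and *Hspa1b*, near-identical neighbours on chromosome 17. *Hspa1a* (GRCm38, chromosome 17, 34969190 to 34972156, minus strand) had 43522 and 29570 reads in the WT libraries and 56043 and 60813 under the *Sirt6* cKO label. The groups did not overlap, and the *Sirt6* cKO libraries lay close together. Its level was 565 ± 142 CPM in WT and 938 ± 13.8 CPM in *Sirt6* cKO (SD, n = 2 each), a fold change of 1.66 (log2 0.73, SE 0.21, 95% interval 0.21 to 1.26, edgeR adjusted p = 0.541, DESeq2 adjusted p = 0.136). It passed the unadjusted threshold in edgeR with each library left out in turn except *Sirt6* cKO 2, where the log2 fold change was 0.68.

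*Hspa1b* (chromosome 17, 34956436 to 34959238, minus strand) had 19585 and 23749 reads in WT and 17648 and 44444 in *Sirt6* cKO. Only *Sirt6* cKO 2 was high, and *Sirt6* cKO 1 lay below both WT libraries. The log2 fold change was 0.55 with an interval from -0.49 to 1.59 (edgeR adjusted p = 0.766). Leaving out *Sirt6* cKO 2 turned it to -0.23, and leaving out *Sirt6* cKO 1 raised it to 1.04.

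Reads of these genes can be split between them, since 66.3% of the 50-base words in the transcripts of *Hspa1a* and 62.3% of those of *Hspa1b* occur in transcripts of another gene, mostly of each other. *Hspa1a* also overlaps exons of a gene on the other strand, *Gm20481*, by 564 bases, and use of strand in the counting was not given in the sources used here. *Hspa1b* took 31.0% and 44.5% of the pair's reads in WT and 23.9% and 42.2% in *Sirt6* cKO, so the share differed more between replicates than between groups. Summed, the pair had 63107 and 53319 reads in WT and 73691 and 105257 in *Sirt6* cKO. The sum was 901 ± 89.3 CPM in WT and 1431 ± 297 CPM in *Sirt6* cKO, with no overlap, a fold change of 1.59 (log2 0.67, SE 0.19, edgeR adjusted p = 0.541), past the unadjusted threshold. It no longer passed without *Sirt6* cKO 2 (log2 fold change 0.41) or without WT 2 (0.57).

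The promoters of the pair are shown because they are almost the same and hold the binding core of heat shock factors. In the 250 bases before the start they differ at 3 positions (98.8% identical). The 120 bases before the start of each, from RefSeq on GRCm38.p6, run on the minus strand at chr17:34972157-34972276 and chr17:34959239-34959358. Capitals mark the core GAANNTTC, which is its own reverse complement.
Hspa1a: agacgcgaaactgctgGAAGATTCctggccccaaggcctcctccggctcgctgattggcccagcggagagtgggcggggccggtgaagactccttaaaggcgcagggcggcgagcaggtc
Hspa1b: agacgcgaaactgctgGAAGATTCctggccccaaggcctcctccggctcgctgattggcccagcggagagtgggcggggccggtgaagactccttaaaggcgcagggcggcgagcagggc
The core lay 104 to 97 bases before the start in both genes. The counts of the pair moved apart between replicates in both groups. On the log2(CPM + 0.5) scale, *Sirt6* cKO 1 minus *Sirt6* cKO 2 was -0.03 for *Hspa1a* and -1.24 for *Hspa1b*. WT 1 minus WT 2 was 0.52 for *Hspa1a* and -0.32 for *Hspa1b*. Since reads can be split between the copies, the counts do not show whether the output of the genes differed.

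The constitutive cytosolic Hsp70, *Hspa8*, had 140025 and 107678 reads in WT and 113744 and 142671 in *Sirt6* cKO. The groups overlapped, and the log2 fold change of 0.10 had an interval from -0.34 to 0.54. Of its 50-base words 52.7% occur in other genes, 15 in number and led by *Gm15459*. *Hspa2*, an Hsp70 best known from testis, had 2061 and 1977 reads in WT and 2165 and 2703 in *Sirt6* cKO, a log2 fold change of 0.32 (interval -0.30 to 0.93) with no overlap in CPM.

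*Hspa13*, an Hsp70 of the ER and microsomes, was the member with the largest called increase. It had 1888 and 1621 reads in WT and 2807 and 2887 in *Sirt6* cKO, which is 27.2 ± 2.38 and 45.8 ± 1.06 CPM (SD, n = 2 each). The groups were well apart, with a fold change of 1.68 (log2 0.75, SE 0.24, interval 0.15 to 1.36, edgeR adjusted p = 0.541, DESeq2 adjusted p = 0.175). None of its 50-base words occur in another gene. With any 1 library left out, its log2 fold change was between 0.67 and 0.82 and no longer passed the unadjusted threshold.

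*Hspa14*, which encodes an Hsp70 relative that works at the ribosome, was the Hsp70 member with the clearest difference in the other direction, chosen for mention after its values were seen. It had 5482 and 4730 reads in WT and 3568 and 3536 in *Sirt6* cKO, with no overlap, and a log2 fold change of -0.47 (interval -0.99 to 0.06, edgeR adjusted p = 0.616). It missed the unadjusted threshold as tested but passed it with upper quartile normalization (-0.55), with library size alone (-0.56) and in limma. Part of its exons, 321 bases, is shared with *Gm45902* on the same strand. *Hspa12a*, *Hspa12b* and *Hspa1l* had between 144 and 1034 reads in each library, and their groups overlapped.

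In the ER, *Hspa5* (BiP), the main Hsp70 there, had 98269 and 69859 reads in WT and 84017 and 79918 in *Sirt6* cKO. Both *Sirt6* cKO libraries lay between the WT libraries, and the log2 fold change was 0.02 (interval -0.47 to 0.51), with its sign turned by upper quartile normalization and by library size alone. *Hsp90b1* (GRP94), the Hsp90 of the ER, had 116396 and 87560 reads in WT and 118277 and 98558 in *Sirt6* cKO, a log2 fold change of 0.15 (interval -0.35 to 0.65), and replicate 1 was the higher in both groups. Of the 44 members with a promoter in the RefSeq table, these 2 alone held a match to the ER stress element, the site at which ATF6 acts with NF-Y, which 0.119% of the 32851 mouse promoters of the same length hold. Stretches of both promoters are shown from RefSeq on GRCm38.p6, *Hspa5* at chr2:34772000-34772079 on the plus strand and *Hsp90b1* at chr10:86705525-86705664 on the minus strand. Capitals mark the matches, of which the second in *Hsp90b1* is on the opposite strand.
Hspa5: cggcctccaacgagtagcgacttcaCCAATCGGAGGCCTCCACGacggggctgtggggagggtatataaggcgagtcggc
Hsp90b1: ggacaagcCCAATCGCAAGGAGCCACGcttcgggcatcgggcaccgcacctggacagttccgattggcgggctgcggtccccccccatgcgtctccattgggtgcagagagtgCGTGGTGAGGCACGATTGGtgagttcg

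*Dnajb9* (ERdj4), a J-domain partner of Hspa5 known to be raised by ER stress, was higher under the *Sirt6* cKO label. It had 20350 and 19077 reads in WT and 23041 and 28067 in *Sirt6* cKO, and the groups did not overlap. Its level was 305 ± 7.86 and 410 ± 39.5 CPM, a fold change of 1.34 (log2 0.42, SE 0.16, interval 0.02 to 0.83, edgeR adjusted p = 0.563). It missed the unadjusted threshold in DESeq2, with library size alone (0.34), with upper quartile normalization (0.35) and with any 1 library left out, where its log2 fold change was between 0.29 and 0.52.

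*Dnajb11* (ERdj3), another J-domain partner of Hspa5, had 4107 and 2441 reads in WT and 529 and 3076 in *Sirt6* cKO. *Sirt6* cKO 1 stood far below the other 3 libraries, and its difference from *Sirt6* cKO 2, -2.39 on the log2(CPM + 0.5) scale, was the widest between replicates of any member. The log2 fold change was -0.83 with an interval from -2.79 to 1.12, -0.08 without *Sirt6* cKO 1 and -2.56 without *Sirt6* cKO 2. *Dnajb12*, a J-domain protein anchored in the ER membrane, and *Dnajb2*, one that also binds ubiquitin, were higher in both *Sirt6* cKO libraries than in both WT libraries, with log2 fold changes of 0.93 (interval -0.17 to 2.04) and 0.53 (interval -0.04 to 1.11). *Dnajb12* had 378 and 543 reads in WT and 1055 and 633 in *Sirt6* cKO.

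The cytosolic Hsp90 genes were at like levels in both groups. *Hsp90aa1*, the inducible one, had 78204 and 73057 reads in WT and 73296 and 62084 in *Sirt6* cKO, a log2 fold change of -0.10 (interval -0.52 to 0.31). *Hsp90ab1*, the constitutive one, had 70767 and 61509 reads in WT and 83231 and 65857 in *Sirt6* cKO, a log2 fold change of 0.23 (interval -0.25 to 0.71). Both intervals leave out a change of 2-fold or more. The ratio of *Hsp90aa1* to *Hsp90ab1* in TPM was 0.972 and 1.04 in WT and 0.775 and 0.829 in *Sirt6* cKO, so it was lower in both *Sirt6* cKO libraries, without a test. Of the 50-base words of *Hsp90aa1*, 58.5% occur in other genes, mostly *Gm12346*.

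The Hsp110 genes, whose products release ADP from Hsp70, were the most even group. *Hsph1* had 12256 and 12653 reads in WT and 10896 and 13989 in *Sirt6* cKO, a log2 fold change of 0.05 (interval -0.41 to 0.50). *Hspa4* and *Hspa4l* had log2 fold changes of 0.06 (interval -0.39 to 0.52) and 0.11 (interval -0.42 to 0.63). The signs of *Hsph1* and *Hspa4* turned under upper quartile normalization and library size alone.

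Among the mitochondrial members, *Hspd1* (Hsp60) had 60018 and 35446 reads in WT and 42501 and 51187 in *Sirt6* cKO. The WT replicates spanned both *Sirt6* cKO libraries, and the log2 fold change was 0.03 (interval -0.63 to 0.69), below 0 under upper quartile normalization and library size alone. *Hspe1* (Hsp10), its lid, had 2669 and 2444 reads in WT and 2629 and 3166 in *Sirt6* cKO, a log2 fold change of 0.23 (interval -0.35 to 0.81) with no overlap in CPM. The genes lie head to head on chromosome 1, and 112 exon bases overlap. *Hspa9* (mortalin), the Hsp70 of mitochondria, had 18639 and 15121 reads in WT and 16850 and 17798 in *Sirt6* cKO, a log2 fold change of 0.09 (interval -0.34 to 0.52).

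A stretch just before the RefSeq start of *Hspe1*, which lies inside the span of *Hspd1* in the annotation used for positions, is shown because it holds the longest run of heat shock units among the members' promoters. It is given from RefSeq on GRCm38.p6 at chr1:55088038-55088097, in the direction of *Hspe1* (plus strand), and capitals mark 4 alternating units that overlap in 2 matches to the 3-unit heat shock element.
Hspe1: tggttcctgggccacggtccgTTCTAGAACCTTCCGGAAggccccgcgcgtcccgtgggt
Of the 44 members with a promoter in the table (250 bases before to 50 after the start), 4 held the 3-unit element, *Dnajb6*, *Hspd1*, *Hspe1* and *Hsph1*, in the last of them after the start. The matches of *Hspd1* and *Hspe1* are the same stretch, the one shown, read on opposite strands. They are not separate sites, though each gene is counted here and for both cores below. That element is found at 0.662% of the 27025 genes with a promoter there, and in 0.603% of the promoters. The core GAANNTTC was in 13 of 44 members (9.04% of genes, 7.86% of promoters) and the core TTCNNGAA, also its own reverse complement, in 5 of 44 (9.60% of genes, 8.52% of promoters). The 3-unit element contains both cores, so these counts overlap. None of the 4 genes with the 3-unit element had an unadjusted p under 0.05. Of the called members with a promoter in the table, *Hspa1a* and *Bag3* held a core, in *Bag3* after the start, and *Dnajb9* and *Hspb9* held none of the motifs searched.

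The small heat shock proteins were led by *Hspb1* (Hsp25), which binds unfolded protein and actin. It had 22011 and 26846 reads in WT and 28482 and 29727 in *Sirt6* cKO, or 379 ± 60.5 and 468 ± 5.96 CPM. The groups did not overlap, but the difference was no larger than that between the WT libraries (log2 fold change 0.30, interval -0.14 to 0.74, edgeR adjusted p = 0.691). Its promoter is shown because it holds 2 cores within 30 bases, at chr5:135887789-135887858 on the plus strand (RefSeq, GRCm38.p6), in capitals.
Hspb1: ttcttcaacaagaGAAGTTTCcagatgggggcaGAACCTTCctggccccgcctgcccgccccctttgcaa
A pseudogene, *Hsp25-ps1*, shares 51.6% of the 50-base words of *Hspb1*. *Hspb8*, which works with Bag3 in the clearance of aggregates, had 5486 and 6486 reads in WT and 7345 and 7828 in *Sirt6* cKO, with no overlap and a log2 fold change of 0.39 (interval -0.11 to 0.89, edgeR adjusted p = 0.646).

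*Hspb9*, a small heat shock protein known mainly from testis, was the only member that edgeR called lower at the unadjusted threshold. It had 60 and 78 reads in the WT libraries and 7 and 4 under the *Sirt6* cKO label, which is 1.07 ± 0.219 and 0.0892 ± 0.0379 CPM (SD, n = 2 each). The groups were far apart, with a log2 fold change of -3.56 (SE 1.37, interval -7.00 to -0.12, edgeR adjusted p = 0.568, DESeq2 adjusted p = 0.279). The estimate rests on few reads, and it missed the unadjusted threshold without the filter on low counts and with any 1 library left out, where the log2 fold change was between -4.06 and -3.22. The other small members known from muscle, *Hspb2*, *Hspb6* and *Hspb7*, had between 16 and 847 reads in each library, and their groups overlapped. Beside them, 4 of 12 muscle genes examined were lower at the unadjusted p, where 3.32% of all genes tested were. The summed TPM of that list was 238 and 405 in WT and 165 and 179 in *Sirt6* cKO. The part of muscle genes in these levels was not tested. *Hspb11*, a subunit of the transport complex of cilia in spite of its name, had 342 and 222 reads in WT and 196 and 218 in *Sirt6* cKO (log2 fold change -0.39, interval -1.72 to 0.94).

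**Figure D4:**
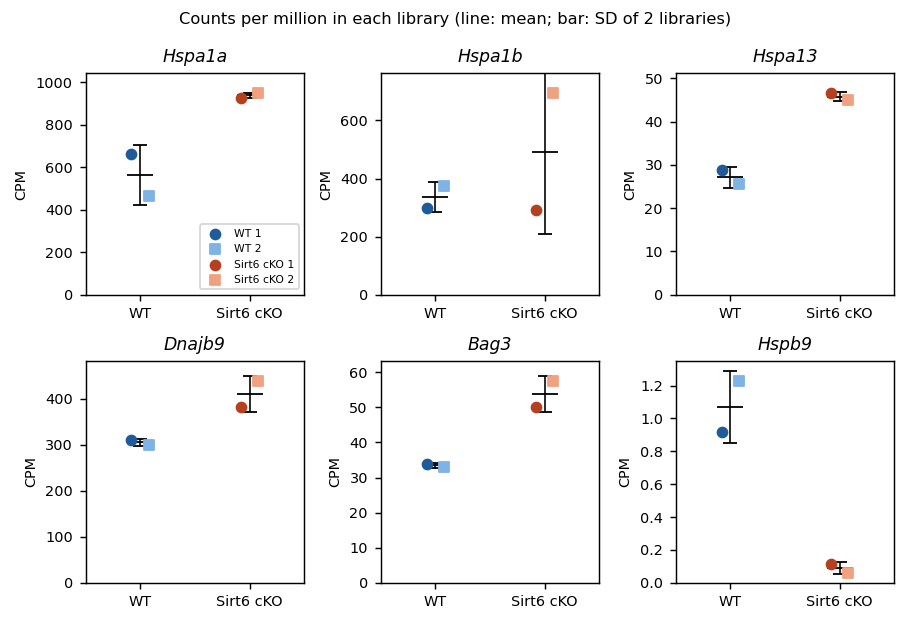
CPM in each library (y axis, from 0) of the 5 members with an unadjusted p under 0.05 and of *Hspa1b*, by group (x axis). Points are libraries, horizontal lines group means, and bars the SD of 2 libraries. In the 5 called members the groups do not overlap; *Hspa1b* is high in *Sirt6* cKO 2 alone.

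The class A J-domain proteins bind unfolded protein and load it on Hsp70. *Dnaja1* had 55318 and 35739 reads in WT and 53073 and 55608 in *Sirt6* cKO. The *Sirt6* cKO libraries agreed closely while WT 2 was low, and the log2 fold change was 0.31 (interval -0.25 to 0.88). Without WT 1 it was 0.61, past the unadjusted threshold, and without WT 2 it was 0.05. *Dnaja2* had 6546 and 5781 reads in WT and 8421 and 7288 in *Sirt6* cKO, with no overlap and a log2 fold change of 0.41 (interval -0.11 to 0.92). *Dnaja4* had 483 and 972 reads in WT and 261 and 893 in *Sirt6* cKO; replicate 1 was the lower in both groups, and the log2 fold change of -0.31 has an interval that reaches up to 1.38. Its exons overlap *Wdr61* on the other strand by 1581 bases.

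*Dnajb1* (Hsp40), the inducible partner of Hspa1a, had 32493 and 28492 reads in WT and 31076 and 38892 in *Sirt6* cKO. The groups did not overlap in CPM (472 ± 34.4 and 561 ± 64.7), and the log2 fold change was 0.25 (interval -0.17 to 0.66, edgeR adjusted p = 0.729). *Dnajb6*, which keeps aggregation-prone protein in solution, had 21026 and 13945 reads in WT and 19853 and 14837 in *Sirt6* cKO, so that replicate 1 was the higher in both groups. Its log2 fold change was 0.05 (interval -0.64 to 0.74) and fell below 0 with upper quartile normalization and library size alone. *Dnajb7* had 57 and 0 reads in WT and 34 and 89 in *Sirt6* cKO, too few for a fold change. Of the 12 Dnajb genes tested, 1 passed the unadjusted p (8.33%, beside 8.58% of all genes tested) and 5 had groups that did not overlap, all higher (41.7%, beside 41.9% of all genes tested that did not overlap in either direction and 21.6% that were higher).

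*Bag3*, which couples Hsp70 to autophagy and is a known target of Hsf1, was the only BAG gene that edgeR called at the unadjusted threshold. It had 2219 and 2101 reads in WT and 3032 and 3683 under the *Sirt6* cKO label. The replicates lay close together and the groups apart, at 33.5 ± 0.626 and 53.8 ± 5.08 CPM (SD, n = 2 each), a fold change of 1.61 (log2 0.69, SE 0.23, interval 0.10 to 1.27, edgeR adjusted p = 0.548, DESeq2 adjusted p = 0.219). With any 1 library left out, the log2 fold change was between 0.55 and 0.78 and no longer passed the unadjusted threshold. None of its 50-base words occur in another gene.

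*Bag1*, the nucleotide exchange factor that also binds the proteasome, had 8710 and 3868 reads in WT and 1514 and 4370 in *Sirt6* cKO; it is named because DESeq2 called it lower at the unadjusted threshold (DESeq2 adjusted p = 0.423). Each group spanned more than 2-fold, and the log2 fold change was -1.06 (interval -2.54 to 0.42, edgeR adjusted p = 0.681). Leaving out 1 library moved it to -0.40 (WT 1), -1.51 (WT 2), -0.51 (*Sirt6* cKO 1) or -1.98 (*Sirt6* cKO 2, past the unadjusted threshold). *Bag5* was close to even between replicates, with 1536 and 1557 reads in WT and 1272 and 1361 in *Sirt6* cKO, and a log2 fold change of -0.18 (interval -0.84 to 0.48). *Bag2*, *Bag4* and *Bag6* overlapped between the groups.

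The factors that control the set differed little. *Hsf1* had 2796 and 2393 reads in WT and 2984 and 2644 in *Sirt6* cKO, a log2 fold change of 0.17 (interval -0.44 to 0.79). *Hsf2* had 623 and 530 reads in WT and 824 and 490 in *Sirt6* cKO, a log2 fold change of 0.25 (interval -0.79 to 1.29), and *Sirt6* cKO 2 was the lowest of the 4 libraries. Hsf1 is controlled mostly by binding and modification of the protein, which these data do not show.

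In 9 members the replicates of a group differed by more than 2-fold, a count that was not made over all genes tested. In 6 of them, *Bag1*, *Dnaja4*, *Dnajb11*, *Dnajb3*, *Hspa1b* and *Hspb2*, the *Sirt6* cKO replicates differed so, and *Sirt6* cKO 1 was the lower each time. The WT replicates differed so in *Bag1*, *Dnajb7* and *Hspb7*, where WT 1 was the higher, and in *Hspa12a* and *Dnaja4*, where it was the lower. Libraries also differed as wholes: taking each member's log2 CPM against its own mean, the members' median stood at 0.04 (WT 1), -0.17 (WT 2), 0.05 (*Sirt6* cKO 1) and 0.10 (*Sirt6* cKO 2), where the same median over all genes tested was between -0.01 and 0.02.

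**Figure D5:**
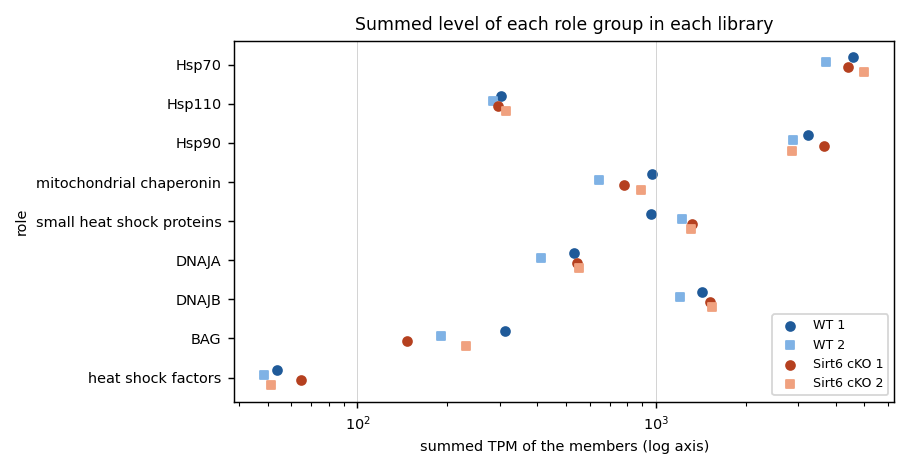
Summed TPM of each role group (y axis) in each library on a log axis (x axis); circles and squares are replicates 1 and 2, blue WT and red *Sirt6* cKO. WT 2 is the lowest library for the Hsp70, mitochondrial chaperonin and J-domain groups, the BAG genes spread from 146 to 313 TPM, and the small heat shock proteins are lowest in WT 1 (960 TPM).

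By role, WT 2 was also the lowest library for Hsp70 (3730 TPM against 4414 to 4998 in the other 3) and for the mitochondrial pair (644 TPM against 781 to 968). The Hsp90 genes had 3241 and 2871 TPM in WT and 3674 and 2864 in *Sirt6* cKO, higher in replicate 1 of both groups. The small heat shock proteins had 960 and 1222 TPM in WT and 1326 and 1315 in *Sirt6* cKO, nearly all of it from *Hspb1* and *Hspb8*. No role group but this one and the class A and class B J-domain genes had both *Sirt6* cKO libraries above both WT libraries.

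Other genes of the chaperone pathways were then counted from lists written for this purpose. Of all genes tested, 5.27% were higher and 3.32% lower at the unadjusted p in edgeR. Of 17 cochaperones of Hsp90, 0 were higher and 1 was lower at the unadjusted p in edgeR, with a median log2 fold change of -0.07. The lower one was *Stub1*, the ubiquitin ligase (CHIP) that marks clients of Hsp70 and Hsp90 for degradation, with 14111 and 12562 reads in WT and 8777 and 9901 in *Sirt6* cKO (log2 fold change -0.46, SE 0.17, edgeR adjusted p = 0.552, DESeq2 adjusted p = 0.325). Of 20 further targets or regulators of Hsf1, 4 of which are also Hsp90 cochaperones, 2 were higher and 0 lower, with a median of -0.10. In 11 of the 20 the fold change was below 0.

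The 2 were *Hmox1* and *Sqstm1*. *Hmox1*, heme oxygenase, which heme and oxidative stress also raise, had 10218 and 9991 reads in WT and 17946 and 18975 under the *Sirt6* cKO label (log2 fold change 0.92, SE 0.16, edgeR adjusted p = 0.541, DESeq2 adjusted p = 0.00158). *Sqstm1*, the autophagy receptor p62 and a partner of the route that Bag3 serves, had 76486 and 77709 reads in WT and 111857 and 122866 in *Sirt6* cKO (log2 fold change 0.66, SE 0.13, edgeR adjusted p = 0.541, DESeq2 adjusted p = 0.0444). In both genes the replicates lay close together and the groups far apart, and both passed the unadjusted threshold in edgeR with any 1 library left out.

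Of 22 genes of the unfolded protein response of the ER, 2 were higher and 2 lower at the unadjusted p, with a median of -0.11. The shares over all genes tested were 5.27% higher and 3.32% lower. The higher ones were *Atf4*, the transcription factor of the integrated stress response (15551 and 15707 reads in WT, 29827 and 21059 in *Sirt6* cKO, log2 fold change 0.76, edgeR adjusted p = 0.541), and *Calr*, the calcium-binding chaperone calreticulin (log2 fold change 0.44, edgeR adjusted p = 0.564). The lower ones were *Xbp1*, the transcription factor of the IRE1 branch (32226 and 24486 reads in WT, 18332 and 19745 in *Sirt6* cKO, log2 fold change -0.52, edgeR adjusted p = 0.548), and *Creld2*, an ER protein (log2 fold change -0.65, edgeR adjusted p = 0.563). None of the 4 passed an adjusted p in DESeq2. Of the members placed in the ER above, *Hspa13* and *Dnajb9* were called higher by edgeR, and *Dnajb9* was not called by DESeq2. *Hspa5*, *Hsp90b1*, *Dnajb11* and *Dnajb12* were not called, and none was called lower.

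The cytosolic chaperonin CCT with prefoldin (13 genes tested) and the proteases and import chaperones of mitochondria (13 tested, *Dnaja3* among them) had 0 calls in either direction at the unadjusted p in edgeR, with medians of -0.13 and -0.06. In DESeq2 both lists had 0 genes past the unadjusted and 0 past the adjusted threshold.

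Immediate early genes are known to respond within minutes to dissociation and other stimuli. Of 21 tested, 5 were higher and 0 lower at the unadjusted p, where 5.27% and 3.32% of all genes tested were. The median log2 fold change of the 21 was 0.21. The 5 were *Fosb* (1.20), *Atf3* (0.66), *Zfp36* (0.51), *Egr1* (0.48) and *Jun* (0.38), with edgeR adjusted p between 0.541 and 0.569. Their summed level over the list was 15681 and 17735 TPM in WT and 18347 and 20371 in *Sirt6* cKO, the highest in *Sirt6* cKO 2. The summed reads of *Hspa1a* and *Hspa1b* were also highest in that library. The WT libraries had opposite orders, with more reads of the pair in WT 1 (63107 against 53319) but the lower level of the list. The part of the immediate early genes in the difference of *Hspa1a* and *Bag3* was not tested.

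Lists of genes that mark other cell types, or types of mTEC, were counted in the same way. Beside each count stand the same shares of all genes tested, 5.27% higher and 3.32% lower. Of 11 genes of macrophages and dendritic cells 0 were higher and 3 were lower (*Lyz2*, *Cd68* and *C1qa*). By fold change alone 8 of the 11 were below 0 and 3 above. The summed level of the 11 was 10582 and 6423 TPM in WT and 3994 and 4288 in *Sirt6* cKO. Most of that level was *Lyz2*, with 9532 and 5941 TPM in WT and 3664 and 3955 in *Sirt6* cKO. Of 12 tuft cell genes 0 were higher and 8 were lower (629 and 745 TPM in WT, at most 303 in *Sirt6* cKO). By fold change alone 10 of the 12 were below 0 and 2, *Pou2f3* and *Dclk1*, above. Among 12 genes of mature mTECs 3 were higher, *Aire*, *Cd80* and *Epcam*, and 0 lower. By fold change alone 9 of the 12 were above 0 and 3 below. Of 8 genes of *Ccl21a*-positive mTECs 0 were higher and 1, *Ccl21a* itself, was lower (log2 fold change -2.37). The list as a whole went the other way, with 6 of the 8 above 0, 2 below and a median of 0.35. Thymocyte genes had 1695 and 1213 TPM in WT and 1498 and 884 in *Sirt6* cKO, and genes of dividing cells 1082 and 501 TPM in WT and 1014 and 471 in *Sirt6* cKO; neither list had a call in edgeR or in DESeq2 at the unadjusted threshold. Replicate 1 was the higher of each pair in both of these lists, as it was for *Hsp90b1*, *Hsp90ab1* and *Dnajb6*. Genes of cTECs and B cells had 1 higher each, genes of fibroblasts and endothelium 1 lower, and genes of ciliated cells 1 of each. By fold change alone, 6 cTEC genes were below 0 and 3 above, and 4 B cell genes below and 2 above. Of the genes of fibroblasts and endothelium, 6 were above 0 and 4 below. Of the 217 genes tested in all lists, 36 passed the unadjusted p in edgeR, beside 8.58% of all genes tested, and 0 passed an adjusted p of 0.05. By DESeq2, 16 of them passed the adjusted p, *Hmox1* and *Sqstm1* included, beside 1.88% of all genes tested. Whether the makeup of the sort differed between the groups, and its part in the levels of the heat shock genes, was not tested.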

How the data were processed

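Reads were cleaned by the authors with Trim Galore, mapped to mm10 by HISAT2 2.1.0 and summarised per gene by StringTie 1.3.3 (versions from the submitters' processing notes). They deposited whole-number counts per gene without normalization, and for each library a table of TPM values, in which 1 line that named no gene (the column total, equal to the sum of the genes) was left out. The gene annotation and the use of strand in counting were not given in the sources used here. The deposited counts were tested with edgeR 4.0.16 (filterByExpr at 10 reads and 15 in total, TMM normalization, glmQLFit and glmQLFTest) in R 4.3.3 over 18547 genes, 2 libraries against 2, with Benjamini-Hochberg adjustment over all of them. The biological coefficient of variation was 0.557. Intervals of fold changes are 95% intervals from that fit. The labels call the libraries samples 1 and 2 of a genotype, and the study calls them independent, without naming animals, so p-values measure the spread between these samples. An exact permutation test of 2 against 2 cannot go below p = 0.333 and was not used.

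The members and the lists were chosen with earlier results of these data known. Named with their reads were the members with an unadjusted p under 0.05, the main chaperones and factors of each role, the 5 highest by TPM, the 3 whose replicates differed most (*Dnajb11*, *Dnaja4* and *Dnajb7*) and those that failed the filter; of the pathway lists, the genes past the unadjusted p with the largest fold change each way. Other genes were added after their values were seen. Positions and shared 50-base words came from the GRCm38 annotation, and promoters from RefSeq, where 44 of the 52 members matched by symbol. DESeq2 1.42.0 (adjusted at 0.05), limma 3.58.1 on log2(TPM + 1) and log2(TPM + 0.1), no filter, library size alone, upper quartile normalization, a floor of TPM over 0.1 in every library, a block by replicate number and each library left out were the alternatives. With a library left out, the lone library of a group was assumed to vary like the other group. The edgeR step was tested on simulated data. Figures were drawn with matplotlib 3.10.9.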

Additional observations from a re-analysis of the deposited data

How the results depend on the processing

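All counts are of members at an unadjusted p of 0.05. The number called higher, 4 in edgeR, was 2 with the replicate block, both among the 4, and between 0 and 3 with 1 library left out, at most 1 of them (*Hspa1a*) among the 4. The number called lower, 1 in edgeR (*Hspb9*), was 2 in DESeq2 (with *Bag1*) and 2 with library size alone, with upper quartile normalization and in limma with either pseudocount (each with *Hspa14*), 0 with no filter on low counts and 0 with the replicate block, and between 0 and 2 with 1 library left out, *Hspb9* never among them. The number at an adjusted p of 0.05 was 0 in edgeR, DESeq2 and limma and under each alternative run. The median log2 fold change of the members was between 0.06 and 0.25 with 1 library left out, 0.25 being without WT 1, and that of *Hspa1a* and *Hspa1b* summed between 0.41 and 0.87. Over all genes, 61.4% of the calls at the unadjusted p were higher, 46.2% after scaling by library size and 48.4% by the upper quartile, where the median of all genes was -0.093 and -0.086.

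Replicate numbers mark no shared animal or day in the labels. Deviations of same-numbered libraries had a correlation of -0.0466 across genes, so no pairing by number was seen over all genes. A single value over all genes cannot show whether some genes were paired. The values with the block are those above.

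Some fold changes near 0 turned sign. With library size alone and with upper quartile normalization they were -0.07 and -0.06 for *Hspa5*, -0.02 and -0.02 for *Hspa4*, -0.04 and -0.03 for *Hsph1*, -0.06 and -0.05 for *Hspd1*, and -0.03 and -0.03 for *Dnajb6*. With 1 library left out the fold changes ranged from -0.23 to 1.04 for *Hspa1b*, from -0.06 to 0.26 for *Hspa8*, from -0.19 to 0.24 for *Hspa5*, from -0.03 to 0.20 for *Hspa9*, from -0.09 to 0.21 for *Hspa4*, from -0.13 to 0.18 for *Hsph1*, from -0.28 to 0.02 for *Hsp90aa1*, from -0.04 to 0.32 for *Hsp90b1*, from -0.29 to 0.41 for *Hspd1*, from -1.42 to 0.31 for *Dnaja4*, from -0.22 to 0.33 for *Dnajb6* and from -0.22 to 0.58 for *Hsf2*. The cause of these changes was not tested. Of the alternative values of 47 single genes, 461 kept direction and side of the unadjusted threshold, 65 lost the call, 9 gained one and 29 turned sign. Intervals were wide for members with few reads, such as *Dnajb7* (log2 fold change from -4.21 to 6.53), and whether depth or the number of libraries limited the calls was not tested.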
